A study of Homo sapiens with 2 samples.

Results

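The genes described here encode the inhibitors of cyclin-dependent kinases (CDKs), the enzymes that drive a cell through its division cycle. Members were taken by gene symbol, and all 7 were present among the 26255 symbols measured: CDKN1A, CDKN1B and CDKN1C of the Cip/Kip family, and CDKN2A, CDKN2B, CDKN2C and CDKN2D of the INK4 family. RNA came from tumours of the human colon cancer cell line HT-29, grown under the skin of the back of female NOD SCID mice, an immunodeficient strain without T and B cells that were 5 weeks old when obtained. The cells had been cultured in complete medium before implantation in both groups. One group then ate normal food and the other food without methionine, tryptophan and niacin, for 2 weeks as the design text has it, although the same text also speaks of a planned period of 3 weeks. There were 2 libraries, 1 for each diet, and the number of tumours behind each was not given in the sources used here. No value below has a replicate, no test of a difference was possible, and the diets cannot be told apart from other differences between the tumours.

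A CDK works only when bound to a cyclin, and the 2 inhibitor families block it in different ways. INK4 proteins bind CDK4 and CDK6 alone and keep cyclin D off them, so that the retinoblastoma protein RB1 stays active and holds back the E2F factors that switch on genes of DNA synthesis. Cip/Kip proteins bind complexes of cyclin and CDK, foremost those of CDK2, and are controlled both at transcription and by protein degradation, which RNA levels do not show. In the intestine, CDKN1A and CDKN1B are known for their place in the cells that leave the dividing crypt.

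The start sites of these genes bear on what 1 value per symbol measures, and 3 of them are shown for that reason. Promoter windows from RefSeq (build GRCh38.p14) matched 6 of the 7 members, CDKN1C being the exception, in 9 windows, since CDKN2A has 2 starts and CDKN2C has 3. CDKN2A is transcribed from separate first exons into an mRNA for p14ARF, which inhibits no CDK, and an mRNA for p16INK4a, the CDK4 and CDK6 inhibitor. The deposited data give 1 value for CDKN2A, with no split between the mRNAs. Shown are the 250 bases before the start of CDKN1A (chr6:36678464-36678713, + strand), and before the upstream (chr9:21995325-21995574, - strand) and the downstream (chr9:21974858-21975107, - strand) start of CDKN2A, each 5′ to 3′ on the gene's strand, with each GC box (GGGCGG on either strand, the letters that factors of the SP and KLF families bind) in capitals.
CDKN1A: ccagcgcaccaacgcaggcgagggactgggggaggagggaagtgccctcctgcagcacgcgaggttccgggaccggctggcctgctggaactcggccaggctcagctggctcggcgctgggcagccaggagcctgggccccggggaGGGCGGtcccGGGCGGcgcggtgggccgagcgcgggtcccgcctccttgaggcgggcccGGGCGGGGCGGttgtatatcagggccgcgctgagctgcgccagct
CDKN2A upstream start: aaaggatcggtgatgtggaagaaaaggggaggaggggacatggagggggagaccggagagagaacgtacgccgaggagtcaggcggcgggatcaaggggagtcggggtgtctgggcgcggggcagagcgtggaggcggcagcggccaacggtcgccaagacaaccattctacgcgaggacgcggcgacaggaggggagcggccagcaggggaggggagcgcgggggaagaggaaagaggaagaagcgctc
CDKN2A downstream start: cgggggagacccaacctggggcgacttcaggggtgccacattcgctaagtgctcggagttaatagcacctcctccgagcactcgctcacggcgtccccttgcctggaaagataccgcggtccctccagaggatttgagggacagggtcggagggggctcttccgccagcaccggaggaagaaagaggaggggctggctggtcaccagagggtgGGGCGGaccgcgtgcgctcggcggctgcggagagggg
The CDKN1A window holds 4 GC boxes, the last 2 sharing bases, and is 76.4% G and C. The upstream CDKN2A window holds 0 and the downstream one 1, and both are 66.8% G and C. For comparison, 42.6% of 35116 RefSeq windows of this length hold at least 1. These matches describe the letters alone and do not show which start was used, which FPKM by symbol cannot tell.

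Values are FPKM, which count sequenced fragments relative to transcript length and library size, so levels of different genes may be set side by side. The log2 ratio of a gene compares depleted with normal after 1 FPKM was added to both values (a pseudocount), which shrinks the ratio of low genes. The 12414 genes whose mean reached 1 FPKM were kept, all 7 members among them. A difference was counted where the log2 ratio was 0.32 or more in size, a fold of 5 to 4. By that rule 7.15% of the kept genes were lower and 6.94% higher on the depleted diet (5.65% and 9.07% with both libraries scaled to the same summed FPKM). The median log2 ratio of the kept genes was near 0, and 6282 genes were lower against 6132 higher. Of the inhibitors, 2 of 7 were counted as lower (CDKN1A and CDKN2C) and 1 of 7 as higher (CDKN1C). Without any pseudocount CDKN2D, 1.251-fold higher on the normal diet, would just have been counted as lower too. At a fold of 1.5, which 1.52% of kept genes passed as lower and 1.65% as higher, 0 of 7 passed in either direction with the pseudocount. That count rests on the pseudocount, since the values as deposited were 1.51-fold (CDKN1A) and 1.58-fold (CDKN2C) higher on the normal diet.

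Library size was estimated at about 7.13e+06 fragments for the normal and 6.90e+06 for the depleted diet. These estimates came from low values within the same window for both libraries, which draws them together. By the most common ratio of low values, 1 fragment was worth 1.04 times as much FPKM in the depleted library. Both libraries had the markers of colon epithelium, all 10 of them above 1 FPKM, with a summed level of 8473 FPKM on the normal and 7900 FPKM on the depleted diet. Fibroblast markers summed to 4.42 and 3.86 FPKM, mostly COL1A1 (2.33 and 2.77 FPKM) and LUM (1.99 and 0.966 FPKM), with DCN at 0 in both. Macrophage and neutrophil markers summed to 1.21 and 2.03 FPKM, mostly CD14 (0.709 and 1.49 FPKM), with CD163 at 0 in both. Endothelial markers summed to 0.211 and 0.108 FPKM and lymphocyte markers to 0.259 and 0.0753 FPKM. These are values for human symbols, and what host cells contributed was not tested. In a bulk tumour, fewer cells that express a gene and less of its RNA per cell cannot be told apart.

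**Figure D1:**
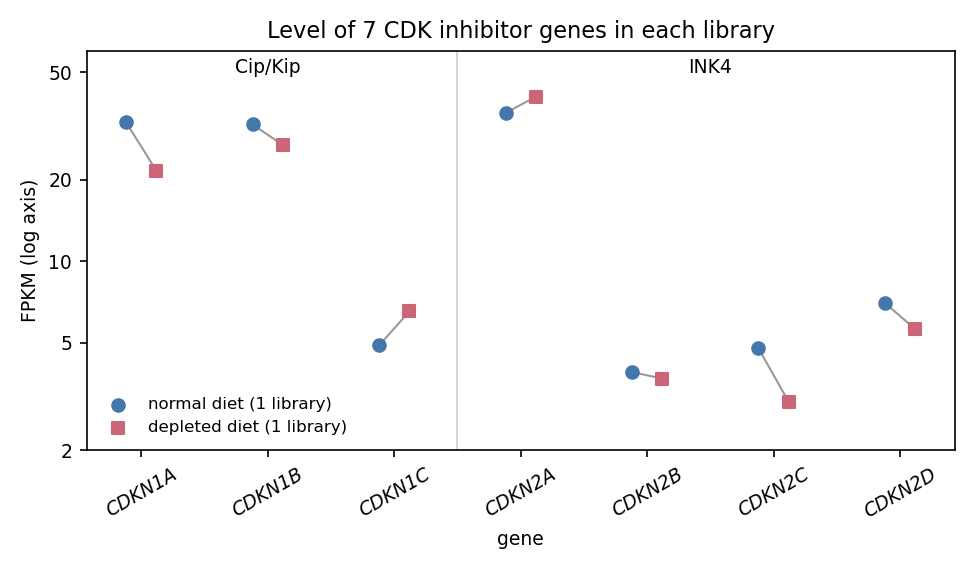
Level of each inhibitor gene in FPKM (log axis) in the normal-diet library (circles) and the depleted-diet library (squares), 1 library each, with no error bars because there are no replicates. CDKN2A, CDKN1A and CDKN1B lie above 20 FPKM in both libraries and the other 4 genes below 10 FPKM.

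In both libraries 3 inhibitors were abundant and 4 were low. CDKN2A was the highest member, at 35.3 FPKM on the normal and 40.6 FPKM on the depleted diet. CDKN1A and CDKN1B were next on the normal diet at 32.6 and 32.0 FPKM, and on the depleted diet they stood at 21.6 and 26.9 FPKM, so that their order was reversed. The lowest member was CDKN2B on the normal diet (3.89 FPKM) and CDKN2C on the depleted diet (3.01 FPKM).

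CDKN1A encodes p21, the Cip/Kip inhibitor that halts the cycle after DNA damage and during differentiation. It went from 32.6 to 21.6 FPKM, 1.51-fold higher on the normal diet, a log2 ratio of -0.57. This was the lowest ratio of the 7, and 1.61% of the kept genes had one as low or lower. The values rest on about 184 to 527 fragments on the normal diet and 118 to 338 on the depleted diet, depending on which coding transcript (793 to 2267 nt) is taken. Its log2 ratio without the pseudocount was -0.59, with a standard error from counting alone of 0.10 to 0.17. In the GENCODE release 29 annotation, exons of an antisense gene, DINOL, overlap CDKN1A. Among 2646 genes of similar level (mean 20 to 50 FPKM, short RNAs left out) the SD of the log2 ratio was 0.17.

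The 5 genes whose level over the 2 libraries was most like that of CDKN1A, by Euclidean distance of log2(FPKM + 1), were NXPH4, LOC729966, GUCD1, PDK1 and ZNF226. NXPH4 was nearest, at 32.8 and 21.8 FPKM, and PDK1 was 34.0 and 23.1 FPKM. With 2 libraries this likeness is no more than a similar pair of values.

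CDKN1B encodes p27, which holds cyclin E and CDK2 in check in resting cells. It was 32.0 FPKM on the normal and 26.9 FPKM on the depleted diet (log2 ratio -0.25), short of the threshold. Its counting error was 0.09 to 0.15, and 11.6% of kept genes had a ratio as low or lower. The quotient of CDKN1A to CDKN1B was 1.02 on the normal and 0.803 on the depleted diet.

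CDKN1C encodes p57, a Cip/Kip protein from an imprinted gene that is expressed mainly from the maternal copy. It was the 1 member of its family with a higher value on the depleted diet, 6.52 against 4.88 FPKM (log2 ratio 0.35). This rests on about 27 to 67 fragments on the normal and 35 to 87 on the depleted diet, with a counting error of 0.23 to 0.37, against a log2 ratio without the pseudocount of 0.42. At this depth the difference is within 2 standard errors of counting alone, and 5.57% of kept genes had a ratio as high or higher.

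The Cip/Kip genes summed to 69.5 FPKM on the normal and 55.0 FPKM on the depleted diet. CDKN1A made up 46.9% and 39.3% of that sum, CDKN1B 46.1% and 48.9%, and CDKN1C 7.02% and 11.9%. The lower sum therefore came with a smaller share of CDKN1A and larger shares of CDKN1B and CDKN1C. For CDKN1C the difference in FPKM was within 2 standard errors of counting alone.

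Of the INK4 genes, CDKN2A was 35.3 FPKM on the normal and 40.6 FPKM on the depleted diet (log2 ratio 0.20, counting error 0.11 to 0.17), short of the threshold. As its 2 mRNAs share their later exons, the value does not say whether p16INK4a or p14ARF accounts for the difference. In the same annotation, exons of the antisense gene CDKN2B-AS1 also overlap CDKN2A, and whether the authors' counting used strand was not given in the sources used here. CDKN2B-AS1 itself was low, at 2.75 and 2.94 FPKM.

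CDKN2C encodes p18, an INK4 protein with a part in differentiation, and was 4.76 FPKM on the normal and 3.01 FPKM on the depleted diet (log2 ratio -0.52). That is 1.58-fold higher on the normal diet before the pseudocount, the largest fold of the 7 on that scale. It rests on about 41 to 99 fragments against 25 to 60, with a counting error of 0.24 to 0.36 for a log2 ratio of -0.66 without the pseudocount. With the transcript of 1220 nt the difference is within 2 standard errors of counting, and with that of 2904 nt it is beyond them. Among 1933 genes of similar level (mean 2 to 5 FPKM) the SD of the log2 ratio was 0.32, and 2.19% of all kept genes had a ratio as low or lower.

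CDKN2D encodes p19, the INK4 protein whose level rises and falls with the cycle. It was 7.01 FPKM on the normal and 5.60 FPKM on the depleted diet (log2 ratio -0.28, counting error 0.26 to 0.30), a difference not detectable at this depth. CDKN2B, which encodes p15 and lies beside CDKN2A, is the classical INK4 target of TGF-beta. Its values were 3.89 and 3.68 FPKM (log2 ratio -0.06, counting error 0.20 to 0.43), likewise not detectable as a difference.

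The INK4 genes summed to 50.9 FPKM on the normal and 52.9 FPKM on the depleted diet, of which CDKN2A made up 69.3% and 76.8%. Without CDKN2A the sums were 15.7 and 12.3 FPKM. The INK4 sum thus had the direction of its most abundant gene, while the other 3 members had lower values on the depleted diet. Of the INK4 genes, only CDKN2C, and only with its longest transcript, differed by more than 2 standard errors of counting.

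**Figure D2:**
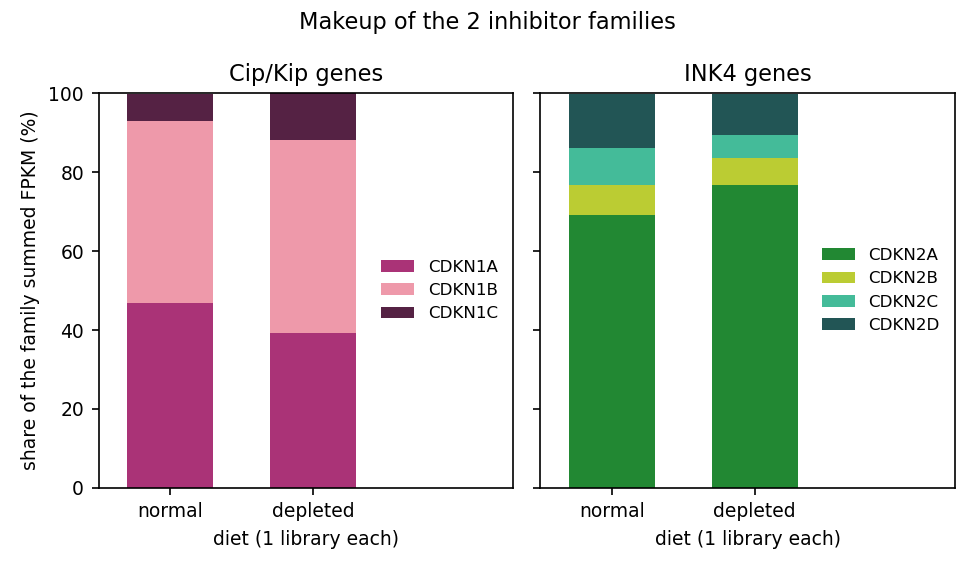
Share of each family's summed FPKM (%, bars from 0 to 100) held by each Cip/Kip gene (left) and each INK4 gene (right), for the normal-diet and the depleted-diet library. CDKN1A goes from 46.9% to 39.3% of the Cip/Kip sum, and CDKN2A from 69.3% to 76.8% of the INK4 sum.

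**Figure D3:**
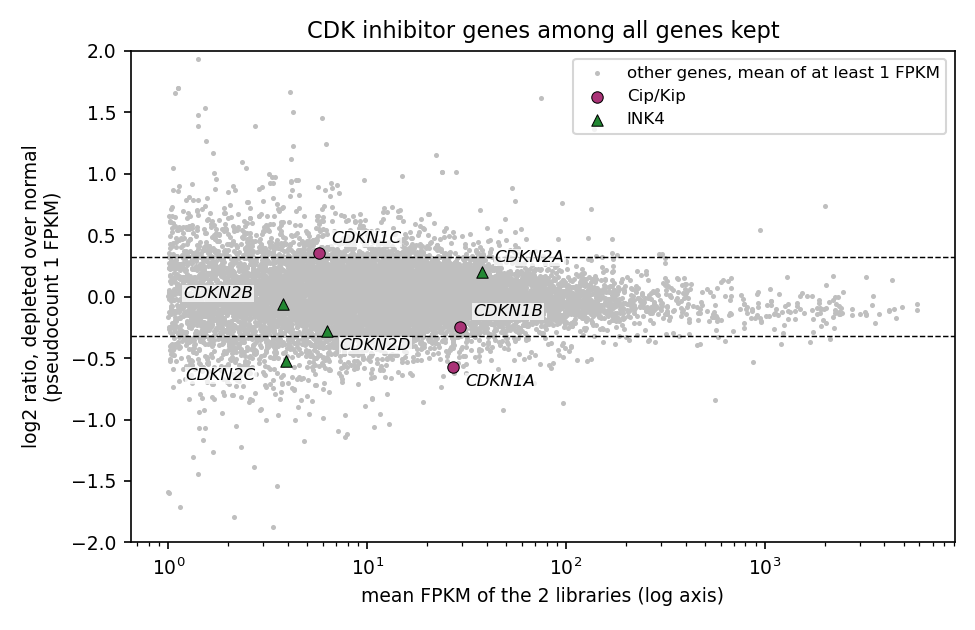
Log2 ratio of depleted to normal (pseudocount 1 FPKM) against the mean FPKM of the 2 libraries (log axis) for all kept genes (grey; 61 lie outside the axis limits of -2 and 2), with the Cip/Kip genes as circles and the INK4 genes as triangles. Dashed lines mark the threshold of 0.32 in size: CDKN1A and CDKN2C lie below the lower line, CDKN1C just above the upper one, and the other 4 genes between them.

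The kinases that the inhibitors act on were all short of the threshold. CDK4 was 89.6 and 83.3 FPKM (log2 ratio -0.10), CDK6 8.30 and 8.89 FPKM (0.09), and CDK2 23.4 and 26.4 FPKM (0.17). Set against these, the INK4 sum was 0.520 of the CDK4 and CDK6 sum on the normal diet and 0.573 on the depleted diet, while the Cip/Kip sum was 2.97 and 2.08 times the CDK2 level, quotients chosen after the values were seen. The INK4 sum includes all CDKN2A RNA, also that for p14ARF, and without CDKN2A it was 15.7 and 12.3 FPKM. RNA quotients do not give those of the proteins.

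The counts past the threshold in this and the following lists are to be read beside the shares of all kept genes, 6.94% higher and 7.15% lower. Of 12 measured G1 CDKs, cyclins and their activators, 8 had higher and 4 lower values without the nutrients. Their median log2 ratio was 0.14, and 2 passed the threshold as higher and 0 as lower. These were CCND1, which encodes cyclin D1, at 32.8 and 43.0 FPKM (0.38), and CDC25A, the phosphatase that activates CDK2, at 5.14 and 6.93 FPKM (0.37). CCND3 was 25.5 and 23.4 FPKM, CCNE1, which encodes cyclin E1, 5.31 and 6.43 FPKM, and CCND2 was listed at 0 in both libraries. The lowest ratio was that of CCNA2, which encodes cyclin A2, at 27.7 and 25.03 FPKM (-0.14).

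Downstream of the CDKs, 8 of 13 pocket protein and E2F genes were higher and 5 lower (median 0.08), with 1 past the threshold as higher and 0 as lower. That gene was E2F8, named after its values were seen, at 3.88 and 5.62 FPKM (0.44). RB1 was 17.3 and 19.7 FPKM (0.18), E2F1 20.3 and 19.1 FPKM (-0.08), and E2F4, a partner of pocket proteins in resting cells, 39.2 and 45.9 FPKM (0.22), the highest ratio at 5 FPKM or more. Proliferation genes had 9 of 14 members higher (median 0.06) and 0 past the threshold either way, with MKI67, a marker of dividing cells, at 39.9 and 44.5 FPKM, and PLK1, a mitotic kinase, lowest at 39.1 and 31.6 FPKM (-0.30). Of 9 mitotic CDK and cyclin genes 6 were lower and 3 higher (median -0.05), with 0 past the threshold.

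Genes of the machinery that degrades Cip/Kip proteins had 8 of 14 members higher and 6 lower (median 0.05), and 0 were past the threshold. SKP2, the receptor that brings p27 to its ubiquitin ligase, was 20.4 and 22.2 FPKM (0.11), and its cofactor CKS1B 103.8 and 95.5 FPKM (-0.12). CUL1, the scaffold of that ligase, had the highest ratio (38.8 and 43.6 FPKM, 0.17) and RBX1, its RING subunit, the lowest (39.5 and 34.9 FPKM, -0.18).

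Of 20 transcription factors known to act on Cip/Kip genes, 9 were higher and 11 lower (median -0.02). With both libraries scaled to the same sum the median was 0.02. Past the threshold were 1 as higher and 0 as lower, beside 6.94% and 7.15% of all kept genes. The 1 higher gene was MYC, which represses CDKN1A together with the protein of ZBTB17, at 76.1 and 106 FPKM (0.47). ZBTB17 had the lowest ratio of this list, 8.32 and 6.66 FPKM (-0.28).

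The list of TGF-beta signalling, which acts on CDKN2B, had 6 of 10 genes higher (median 0.05), with 1 past the threshold, the ligand gene TGFB1 (4.75 and 6.49 FPKM, 0.38). Its lowest ratio was that of the receptor gene TGFBR1 (5.68 and 4.69 FPKM, -0.23), while CDKN2B itself differed by less than its counting error. Of 20 measured repressors of the INK4 locus, 12 were higher and 8 lower (median 0.04). BMI1, the Polycomb protein best known for silencing CDKN2A, was 6.17 and 8.96 FPKM (0.47), so that it and CDKN2A both had higher values on the depleted diet. The others past the threshold were named after their values were seen. Their means lay at 2 to 5 FPKM, where the SD of the log2 ratio was 0.32. They were CBX6, another Polycomb gene (1.96 and 3.02 FPKM, 0.44), and, lower, the DNA methyltransferase gene DNMT3B (2.75 and 1.63 FPKM, -0.51). DNMT3A, a related enzyme, was lowest at 5 FPKM or more (9.82 and 8.21 FPKM, -0.23).

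Around CDKN2A and CDKN2B, all 4 measured neighbours had higher values on the depleted diet, 2 of them past the threshold. For CDKN2B-AS1 the log2 ratio was only 0.07. MTAP, the methionine salvage gene that tumours often lose together with CDKN2A, was 29.9 and 35.5 FPKM (0.24), and its level was close to that of CDKN2A in both libraries, with a quotient of CDKN2A to MTAP of 1.18 and 1.14. The larger ratios were in low genes, named after their values were seen: IFNE, an epithelial interferon (2.00 and 4.88 FPKM, 0.97), and MIR31HG (2.61 and 3.87 FPKM, 0.43). The SD of the log2 ratio among genes of their level (mean 2 to 5 FPKM) was 0.32. IFNE lies within MIR31HG on the same strand without shared exons, so their reads may not be fully separate. CDKN2B, in the same stretch, did not have a higher value, but its log2 ratio of -0.06 was within its counting error of 0.20 to 0.43.

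CDKN1C lies in a cluster of imprinted genes, and 7 of 9 measured neighbours had higher and 2 lower values on the depleted diet (median 0.06), with 2 past the threshold as higher and 1 as lower. PHLDA2, a growth-restraining gene of this cluster and likewise expressed from the maternal copy, was 70.4 and 120 FPKM (0.76), a larger ratio than that of CDKN1C. IGF2, a growth factor gene expressed from the paternal copy, was 8.10 and 11.9 FPKM (0.50). H19, named after its values were seen, was 1.72 and 0.890 FPKM (-0.52). Among genes of the level of H19 (mean 1 to 2 FPKM) the SD of the log2 ratio was 0.41. KCNQ1OT1, the antisense RNA that silences the part of the cluster with CDKN1C on the paternal copy, was 1.43 and 1.78 FPKM (0.19). SLC22A18 was 56.1 and 54.6 FPKM, so not every gene of the cluster was higher.

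**Figure D4:**
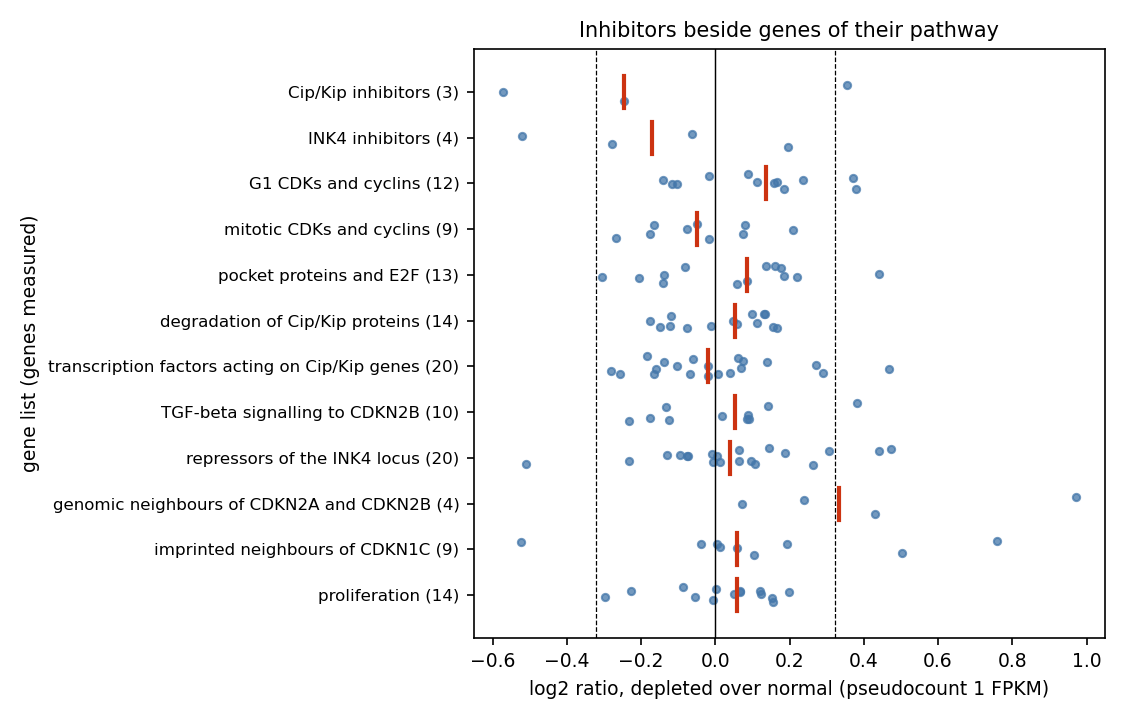
Log2 ratio of depleted to normal (pseudocount 1 FPKM) of each kept gene (points, spread vertically for sight) in the 2 inhibitor families and 10 lists around them, with the list's median as a red bar, dashed lines at the threshold of 0.32 in size and the number of genes measured in brackets. The family medians lie at -0.25 and -0.17, and the medians of the other lists run from -0.05 for mitotic CDKs and cyclins to 0.33 for the neighbours of CDKN2A and CDKN2B.

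Some symbols that begin like those of the inhibitors belong to other proteins and were not counted as members. CDKN3, a phosphatase that is high in dividing cells, was 22.1 and 28.2 FPKM (0.34), CDKN2AIP, which encodes a protein that binds p14ARF, 9.18 and 9.42 FPKM (0.03), and CDKN2AIPNL 15.3 and 18.6 FPKM (0.26). CDKN2A-AS1 was listed at 0 in both libraries.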

How the data were processed

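A stranded mRNA kit was used for the libraries, per the labels' protocols. The authors deposited FPKM for 26255 gene symbols in each of 2 libraries, per the file headers. The submitters' processing notes list, with no role for each, Cuffdiff 2.2.1, TopHat2 2.1.1, SAMtools 0.1.18, Bowtie2 2.2.8 and the genome build hg19. Annotation, strand setting and any removal of mouse reads were not given in the sources used here.

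FPKM are not counts, so no count model was run, and 1 library per diet allows no p-value. Log2 ratios took a pseudocount of 1 FPKM, a mean of at least 1 FPKM and a call at a log2 ratio of 0.32 in size (Python 3.11.15, pandas 2.3.3). The steps were tested on simulated data, with recovery checked for 2-fold changes at a mean of at least 5 FPKM. Recovery of smaller differences and of lower genes was not checked. The members, the 10 other gene lists and 5 marker lists (all 168 entries matched a symbol) and the thresholds were chosen with earlier results of these data known. Beyond the members, named genes were the highest and the lowest ratio of each list at a mean of at least 5 FPKM, up to 4 there past that threshold, and 15 fixed genes; CDKN1A's 5 nearest genes were also named. Another list and its genes are not reported here.

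One fragment was worth 1.04 times as much FPKM in the depleted library, the most common ratio among 1978 low genes, of which 465 had it. Its size came from 119 and 138 genes that have 1 transcript in GENCODE release 29 (another build) and whose FPKM times length lay between 100 and 170, a window set with the values known. Fragment numbers and counting errors built on it are approximate, cover counting alone and are a lower limit on the spread. Alternatives changed the pseudocount, filter, library scaling, fold, or the median of list members to their mean.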

Additional observations from a re-analysis of the deposited data

How the results depend on the processing

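No paired analysis was possible because a single library stands for each diet, and none could be omitted. With the alternatives listed, all 7 inhibitor genes kept the direction of their log2 ratio, and 42 of 47 values kept their side of the fold used. Only the library scalings could have changed a direction, as a pseudocount, filter or fold cannot. The filters also leave the ratio of each gene that stays as it was, so these counts say little about robustness. With a pseudocount of 5 FPKM, CDKN1C (0.22) and CDKN2C (-0.29) were short of the threshold, which left 1 gene lower and 0 higher; a larger pseudocount shrinks low genes by construction. At 1.5-fold CDKN1A (-0.57), CDKN1C (0.35) and CDKN2C (-0.52) were all short with the pseudocount of 1 FPKM, leaving 0 lower and 0 higher; for CDKN1A and CDKN2C this is due to the pseudocount, as their folds without it were 1.51 and 1.58, and their log2 ratios with 0.1 FPKM were -0.59 and -0.64. Where a mean of 5 FPKM was required, CDKN2B and CDKN2C were no longer kept, which left 1 gene lower. Scaling both libraries to the same summed FPKM, or setting the median ratio to 1, changed no count of inhibitor genes. Of 82 list medians under the alternatives, 81 moved by less than 0.1; that of the neighbours of CDKN2A and CDKN2B was 0.22 with a pseudocount of 5 FPKM. Depth limits CDKN1C, CDKN2B, CDKN2C and CDKN2D most, each with at most 108 fragments by these estimates.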
